A study of Mus musculus with 200 samples.

Results

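The genes described here are 10 imprinted genes and neighbours that lie outside the large imprinted clusters of the mouse genome: *Plagl1*, *Zrsr1* and its host *Commd1*, *Peg13* and its host *Trappc9* with the nearby *Kcnk9*, *Impact*, *Zdbf2*, *Ddc* and *Inpp5f*. They were taken by symbol, 10 of the 22033 genes in the tables, and each had a row in every table. An imprinted gene is governed by a mark set in the germ line of one parent, usually DNA methylation at a control region. In the offspring RNA is then made wholly or mainly from the allele of one parent. *Zrsr1* and *Peg13* each lie inside a larger host gene that codes for a different product. The imprint of some of these genes is limited to particular tissues or to particular transcripts.

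RNA was measured by 3SEQ, which sequences the 3′ ends of mRNA, in single whole embryos at embryonic day 11.5 after all extra-embryonic tissue had been removed. The inbred strain C57BL6/J (B6) and the wild-derived inbred strain Castaneus (Cast) were crossed both ways, giving 8 B6 × Cast embryos and 8 Cast × B6 embryos, the mother being named first, each group from 2 litters. F1 animals from B6 mothers and Cast fathers were then crossed back to B6, giving 89 N2 embryos of B6 mothers and F1 fathers (B6 × F1) and 65 of F1 mothers and B6 fathers (F1 × B6). The labels name no treatment or engineered allele. Every F1 embryo is heterozygous at every autosomal gene, while an N2 embryo is either B6/B6 or B6/Cast. The somite number, a count of body segments used as a measure of age, was given for 7 and 6 F1 embryos and ran from 48 to 63 in B6 × Cast and from 41 to 48 in Cast × B6 embryos, so that cross, litter and stage cannot be told apart in the F1 embryos. Cast × B6 litter 2 was sequenced in the runs labelled hs1 and hs2, and the other 3 F1 litters in gaIIx and hs1, so that litter 2 and its runs cannot be told apart either. In the N2 embryos it ran from 42 to 57 under B6 mothers and from 43 to 54 under F1 mothers.

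The expression of each allele was given by votes, the fractions of reads on single nucleotide differences that match B6 or Cast, and the B6 allele fraction (BAF) of a gene is its B6 votes divided by all its votes. In B6 × Cast and B6 × F1 embryos a BAF of 0 means that all votes came from the paternal allele, and in Cast × B6 and F1 × B6 embryos the paternal allele is B6, so that the same state gives a BAF of 1. F1 embryos had 15703888 to 38234229 reads on genes and N2 embryos 245220 to 5370322. Of 14 N2 lanes, 8 held embryos of B6 mothers alone and 5 those of F1 mothers alone, so that N2 levels are also given within each of the 2 flowcells. All 7 neuronal, 7 heart muscle and 5 liver markers examined had reads in every group. The summed level of 9 placental markers was at most 1.71 RPM (reads of a gene scaled to a total of 1e6 reads on genes) in any F1 embryo and 5.15 RPM in any N2 embryo, and *Prl3d1*, *Prl2c2*, *Psg21* and *Ctsq* had no read in any group. All 5 liver markers were higher in B6 × Cast than in Cast × B6 embryos, by a median of 1.00 on the log2 scale, and their part in the F1 levels was not tested. One Cast × B6 embryo of litter 2, labelled 2-3, stood apart in having many votes per read at *Commd1* and *Peg13*, and the allele results are therefore also given without it.

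The promoters of a nested gene and its host and of both zinc finger genes are shown first, because germ-line methylation marks lie on CG dinucleotides, often at or near gene starts. RefSeq windows from 250 bases before to 50 bases after the start were at hand for 6 of the 10 genes, 9 windows in all, and each had exactly 1 match in the mm9 genome. *Peg13*, *Trappc9*, *Kcnk9* and *Impact* are named only. The pair is *Zrsr1*, which gave paternal votes alone in these embryos, on the plus strand at chr11:22871755-22872054 (mm9), and its host *Commd1*, on the minus strand at chr11:22882235-22882534. The *Plagl1* window lies at chr10:12810388-12810687 on the plus strand, and the upstream one of 2 *Zdbf2* windows at chr1:63246682-63246981 on the plus strand. Sequences are written 5′ to 3′ with CG dinucleotides in capitals.
Zrsr1: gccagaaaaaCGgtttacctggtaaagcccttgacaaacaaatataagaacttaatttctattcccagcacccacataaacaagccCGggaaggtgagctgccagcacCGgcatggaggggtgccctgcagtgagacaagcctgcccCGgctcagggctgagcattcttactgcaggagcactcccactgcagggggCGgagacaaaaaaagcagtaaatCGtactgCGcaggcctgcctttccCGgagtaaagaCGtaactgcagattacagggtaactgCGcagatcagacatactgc
Commd1: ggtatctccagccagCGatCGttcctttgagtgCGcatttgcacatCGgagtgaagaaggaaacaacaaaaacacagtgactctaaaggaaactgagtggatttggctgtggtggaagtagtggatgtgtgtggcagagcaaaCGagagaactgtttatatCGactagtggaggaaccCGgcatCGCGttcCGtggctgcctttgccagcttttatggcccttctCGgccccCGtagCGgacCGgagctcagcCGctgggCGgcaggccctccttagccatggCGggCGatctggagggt
Plagl1: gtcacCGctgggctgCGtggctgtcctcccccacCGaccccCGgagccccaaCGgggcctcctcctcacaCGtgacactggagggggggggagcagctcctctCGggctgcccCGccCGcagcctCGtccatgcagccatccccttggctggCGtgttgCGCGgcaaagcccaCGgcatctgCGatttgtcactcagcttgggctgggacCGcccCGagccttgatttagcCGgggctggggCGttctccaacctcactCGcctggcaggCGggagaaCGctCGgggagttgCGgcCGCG
Zdbf2: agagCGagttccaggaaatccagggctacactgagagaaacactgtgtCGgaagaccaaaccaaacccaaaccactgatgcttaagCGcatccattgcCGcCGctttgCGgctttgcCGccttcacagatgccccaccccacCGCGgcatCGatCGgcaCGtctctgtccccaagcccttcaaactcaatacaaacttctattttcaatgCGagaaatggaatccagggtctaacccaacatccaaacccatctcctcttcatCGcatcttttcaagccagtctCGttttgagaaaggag

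These windows held 10 CG in *Zrsr1*, 18 in *Commd1*, 26 in *Plagl1* and 15 in *Zdbf2*, where the median of 32851 RefSeq promoters of 300 bases was 7 with quartiles of 3 and 20. The other *Zdbf2* window had 38 CG, that of *Inpp5f* 15, the second *Commd1* window 17 and the 2 *Ddc* windows 2 and 5. Both *Commd1* windows thus had more CG dinucleotides than the RefSeq window of *Zrsr1*. The zinc finger protein ZFP57, which protects imprints after fertilization, binds a short motif with a methylated CG. Its forms TGCCGCA and TGCCGCG, searched on both strands, were found once in the *Plagl1* window and once in the upstream *Zdbf2* window, and in none of the other 7 windows of these genes. Among all promoters of this length 4.82% held one.

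By position in the mm9 GENCODE annotation, *Zrsr1* (chr11:22873215-22876498, plus strand) lies within *Commd1* (chr11:22734744-22882382, minus strand) and overlaps an exon of a *Commd1* transcript. The whole RefSeq window of *Zrsr1* printed above lies upstream of its GENCODE start. The second *Commd1* window, at chr11:22872817-22873116 on the minus strand, lies nearer to that start. *Peg13* is on the minus strand of chromosome 15 in the tables, like *Trappc9* (chr15:72420051-72891634) and *Kcnk9* (chr15:72342549-72376709), and had no entry under that symbol in the annotation. *Ddc* (chr11:11714104-11798047, minus strand) neighbours the imprinted gene *Grb10*. *Plagl1* spans chr10:12810497-12851500, *Zdbf2* chr1:63319839-63361150 and *Inpp5f* chr7:135754842-135839939, all on the plus strand, and *Impact* is on chromosome 18. Whether reads were counted by strand is not given in the sources used here, so reads of overlapping genes may not be told apart.

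Parent-of-origin expression was asked first of the reciprocal F1 crosses. A gene was called when each cross had at least 20 votes, a binomial test against equal alleles gave a Bonferroni adjusted p under 0.01 in both crosses, and the favoured allele changed with the cross. Among all autosomal genes, 47 of 11598 passed, or 0.405%. Of the 10 genes, 9 had enough votes and 6 were called: *Plagl1*, *Zrsr1*, *Peg13*, *Impact*, *Zdbf2* and *Inpp5f*. All 6 were expressed from the paternal allele. *Commd1*, *Trappc9* and *Ddc* were not called, and *Kcnk9*, a potassium channel gene of the brain, gave 1 vote from 26 reads and was not tested.

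In 3 of the called genes the maternal allele gave few or no votes. *Peg13*, a non-coding RNA, had 0 B6 votes and 492 Cast votes over the 8 B6 × Cast embryos, and 467 B6 votes and 0 Cast votes over the 8 Cast × B6 embryos. The BAF was 0 in every B6 × Cast embryo and 1 in every Cast × B6 embryo, and the 95% Wilson intervals of the pooled values were 0 to 0.00775 and 0.992 to 1. *Plagl1*, a zinc finger transcription factor that slows cell growth, had a BAF between 0 and 0.0135 in B6 × Cast embryos with a median of 0, from 2.5 B6 votes among 528, and a BAF of 1 in each Cast × B6 embryo, from 482 votes. *Zrsr1*, an intronless gene for a splicing factor of the U2AF family, had 22 votes in B6 × Cast embryos, all Cast, and 46 in Cast × B6 embryos, all B6. The 2 crosses did not overlap for any of the 3. At 22 votes the interval of *Zrsr1* still allowed a BAF of up to 0.149. All intervals given here cover counting error only, since the reads carry no molecular identifiers.

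*Zdbf2*, a zinc finger gene, and *Impact*, a regulator of the stress kinase GCN2, gave a few votes of the maternal allele. *Zdbf2* had a BAF of 0.0134 (interval 0.00369 to 0.0476) in B6 × Cast embryos, with 2 B6 votes in 149 that came from 2 embryos with values of 0.0323 and 0.0303, and 0 in the other 6 embryos. In Cast × B6 embryos all 65 votes were B6. The pooled BAF of *Impact* was 0.025 (interval 0.00443 to 0.129) with a B6 mother and 0.968 (0.890 to 0.991) with a Cast mother. A single embryo of each cross held the maternal votes of *Impact*, with BAF values of 0.125 and 0.857, and the other embryos with votes lay at 0 and at 1.

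*Inpp5f*, a phosphatase that removes phosphate from inositol lipids, was biased to the paternal allele without being limited to it. Its BAF ran from 0 through a median of 0.105 to 0.3 in B6 × Cast embryos and from 0.615 through 0.821 to 1 in Cast × B6 embryos. The crosses did not overlap, and the spread within each was wider than for the 5 genes above. The pooled values were 0.120 (interval 0.0927 to 0.155, 424 votes) and 0.813 (0.754 to 0.860, 203 votes). Averaged over both crosses, 84.6% of the votes were paternal.

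*Ddc*, the enzyme that makes dopamine and serotonin from their amino acid precursors, leaned the same way. Its BAF ran from 0 through a median of 0.297 to 0.714 in B6 × Cast embryos and from 0.5 through 0.724 to 0.889 in Cast × B6 embryos, on 102.5 and 98 votes. The crosses overlapped, since B6 × Cast embryos at 0.5 and 0.714 stood within the range of the Cast × B6 embryos. The pooled values were 0.327 and 0.714, a mean paternal share of 69.4%, and neither cross passed the binomial threshold over all genes.

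The hosts differed from the genes they hold. *Trappc9*, a subunit of the TRAPP vesicle tethering complex, had a BAF from 0.498 through a median of 0.540 to 0.560 in B6 × Cast embryos, and from 0.414 through 0.429 to 0.483 in Cast × B6 embryos. All 8 B6 × Cast embryos were above all 8 Cast × B6 embryos, so that each allele had a larger share when it came from the mother. The pooled values were 0.534 (interval 0.518 to 0.549) and 0.435 (0.417 to 0.453), with a mean paternal share of 45.1%, on 3969 and 2936 votes. *Commd1*, a protein of endosomal sorting and copper balance, had a pooled BAF of 0.838 (interval 0.689 to 0.923, 37 votes) with B6 mothers and 0.606 (0.485 to 0.715, 66 votes) with Cast mothers. Its embryos ran from 0.5 to 1 and from 0 to 0.737 and overlapped. Both pooled values of *Commd1* were above equality, and the Cast × B6 value rested on 1 embryo with 38 votes, without which it was 0.429 (interval 0.265 to 0.609, 28 votes).

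**Figure D1:**
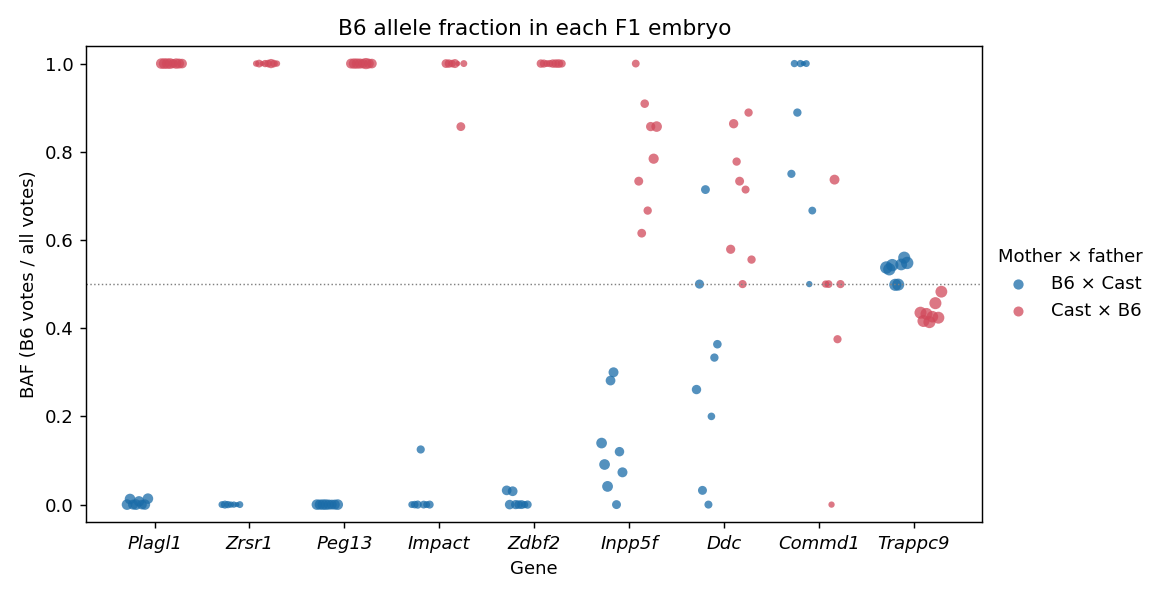
BAF (B6 votes divided by all votes) in each F1 embryo with votes, by gene, with B6 × Cast embryos in blue and Cast × B6 embryos in red, and with larger points for more votes. The dotted line marks equal alleles at 0.5. *Plagl1*, *Zrsr1*, *Peg13*, *Impact* and *Zdbf2* sit at or near 0 in one cross and 1 in the other, *Inpp5f* lies at 0 to 0.3 and 0.615 to 1, and the *Trappc9* crosses are apart close to the line, at 0.498 to 0.560 and 0.414 to 0.483.

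An exact permutation test over the 16 F1 embryos, with 12870 splits and the pooled BAF difference as its value, treats the embryo and not the vote as the unit. It called 112 of 11598 genes at q under 0.05, or 0.966%, and 7 of the 9 genes tested here. *Plagl1*, *Zrsr1*, *Peg13*, *Zdbf2*, *Inpp5f* and *Trappc9* each had p = 0.000155, the smallest this exact test can give, with q = 0.022, and *Impact* had q = 0.035. *Trappc9* was thus the only gene of the 9 called on the maternal side, with a difference between crosses of 0.0987. *Ddc* had an exact permutation p of 0.00295 and q = 0.143, and *Commd1* had p = 0.0317 and q = 0.38. Embryos of a litter share their mother, and by litter the pooled BAF of *Trappc9* was 0.538 and 0.530 with B6 mothers and 0.424 and 0.449 with Cast mothers. An exact permutation test of 2 litters against 2 cannot give a two-sided p below 0.333. The binomial test no longer called *Inpp5f* without Cast × B6 litter 2, nor *Impact* without B6 × Cast litter 3, when its difference was -0.926. Without Cast × B6 embryo 2-3 the binomial test called the same 6 genes, the BAF of *Impact* in Cast × B6 embryos was 1 on 48 votes, and that of *Trappc9* was 0.432.

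The N2 embryos gave a second measurement, in which only embryos heterozygous at the gene are informative. The genotype calls drew on the votes of the genes themselves and of their neighbours along the chromosome. The binomial test called 33 of 9215 genes, or 0.358%, and 6 of the 8 genes with enough votes: *Plagl1*, *Zrsr1*, *Peg13*, *Zdbf2*, *Ddc* and *Inpp5f*, all on the paternal side. *Impact* had 18 Cast votes and no B6 vote in B6 × F1 embryos and 1 vote, of B6, in F1 × B6 embryos, too few to be tested. *Plagl1* had a pooled BAF of 0 (257 votes, 33 embryos) and 0.992 (159 votes, 24 embryos), and *Zrsr1* of 0 (57 votes) and 1 (47 votes). *Peg13* had 0.00927 on 863 votes and 1 on 986, and *Zdbf2* 0.00986 on 604 and 0.973 on 279. The pooled maternal share of these 4 genes was at most 2.68% in either backcross.

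*Inpp5f* and *Ddc* kept their partial bias. The BAF of *Inpp5f* was 0.119 (interval 0.0973 to 0.145, 44 embryos with votes) under B6 mothers and 0.783 (0.719 to 0.836, 25 embryos) under F1 mothers, a mean paternal share of 83.2%. That of *Ddc* was 0.338 (0.291 to 0.386, 31 embryos) and 0.689 (0.637 to 0.736, 28 embryos), a mean paternal share of 67.5%. In single embryos with at least 1 vote both genes ran from 0 to 1 in each backcross, at medians of 0.067 and 0.810 for *Inpp5f* and 0.333 and 0.809 for *Ddc*. *Trappc9* had 0.579 (0.560 to 0.598, 42 embryos) and 0.436 (0.410 to 0.462, 26 embryos), ran from 0.4 to 0.857 and from 0.302 to 0.607 with overlap, and had a mean paternal share of 42.9%. *Commd1* had 0.739 (134 votes) and 0.695 (95 votes), above equality with either mother.

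**Figure D2:**
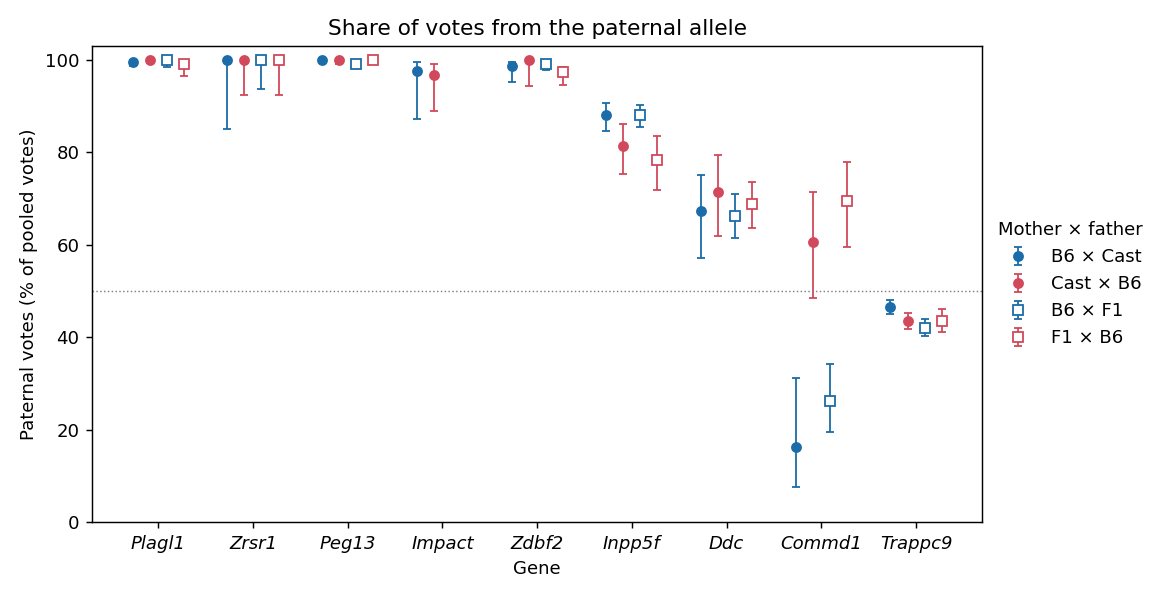
Paternal votes as a percent of the pooled votes of each gene in B6 × Cast, Cast × B6, B6 × F1 and F1 × B6 embryos, with 95% Wilson intervals, for groups with at least 20 votes. The dotted line marks 50%. The share is near 100 for *Plagl1*, *Zrsr1*, *Peg13*, *Impact* and *Zdbf2*, 78.3 to 88.1 for *Inpp5f*, 66.2 to 71.4 for *Ddc* and 42.1 to 46.6 for *Trappc9*, while that of *Commd1* is low when the mother is B6 and high when the father is B6.

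The mother was then permuted over heterozygous embryos, and over whole litters, 100000 times. For *Plagl1*, *Zrsr1*, *Peg13*, *Trappc9*, *Zdbf2*, *Ddc* and *Inpp5f* the permutation p was 1e-05 over embryos and over litters, the smallest these draws can give. *Commd1* had a permutation p of 0.615 over embryos and 0.532 over litters, with a difference of 0.0441. The differences were the same in sign within each flowcell except at *Commd1*. *Trappc9* had 0.589 and 0.436 in the first flowcell and 0.573 and 0.436 in the second. In embryos of at least 50 somites *Trappc9* had 0.577 and 0.424, and in those of at most 47 somites 0.582 and 0.510, the latter from 7 embryos and 200 votes of F1 mothers. *Commd1* had 0.857 and 0.556 in the first flowcell on 28 and 18 votes, and 0.708 and 0.727 in the second on 106 and 77 votes.

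Votes for the silent allele can come from sequencing or mapping error, and B6/B6 embryos, which carry no Cast allele, give that background. Over all autosomal genes 0.194% of the votes in regions typed as homozygous were Cast. Among embryos of F1 mothers, *Zdbf2* had 7.47 Cast votes in 279 in B6/Cast embryos, or 2.68%, against 0.5 in 301, or 0.166%, in B6/B6 embryos (permutation p = 0.00424, 28 and 31 embryos). The maternal Cast votes of *Zdbf2* were spread over 7 of the 28 embryos. *Plagl1* had 0.837% against 0 (permutation p = 0.424), *Zrsr1* had none among 47 votes, and *Peg13* had 0 of 986 against 0.117% (permutation p = 0.542). In *Inpp5f* 21.7% of the votes of B6/Cast embryos were maternal Cast votes against 0 in B6/B6 embryos, in *Ddc* 31.1% against 0.365%, in *Commd1* 30.5% against 0 and in *Trappc9* 56.4% against 0.0763%, with a permutation p of 1e-05 in each. In 5 of the 8 genes the share of Cast votes was thus higher in B6/Cast than in B6/B6 embryos. The genotypes were called partly from the same votes, so that embryos with many Cast votes were unlikely to be typed B6/B6. For genes expressed from both alleles the outcome was thus largely set by the typing. *Commd1* and *Trappc9* were not called by the binomial test, and their values do not concern a silent allele. The comparison covers maternal Cast votes alone. Under B6 mothers *Peg13* had 2 maternal B6 votes in 111 in the first flowcell and 6 in 752 in the second. No N2 embryo lacks a B6 allele, so these votes have no such background and were not tested.

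The share of reads that carry a vote differed widely between these genes. In F1 embryos it was 0.0988 votes per 100 reads at *Commd1*, 1.81 at *Impact*, 3.02 at *Plagl1*, 3.03 at *Zrsr1* and 4.36 at *Peg13*, where all autosomal genes together had 19.0. *Trappc9* had 23.3, *Inpp5f* 22.8, *Zdbf2* 19.0 and *Ddc* 12.0. The BAF of *Commd1*, a gene with 104269 reads in these embryos, therefore rested on 37 and 66 votes. In N2 embryos the values were 0.956 for *Commd1*, 0.537 for *Plagl1* and 41.6 for *Peg13*.

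The genes around each locus were examined in the same way, up to 3 on each side within 500 kb. Of 36 such neighbours 27 had enough F1 votes, and the binomial test called 1 of them, *Grb10*, a growth inhibitor next to *Ddc* that is expressed from the maternal allele. Its BAF was 0.991 with B6 mothers and 0.00521 with Cast mothers, opposite in parent to *Ddc*. The median size of the difference between crosses was 0.0894 over the 27 neighbours, 0.943 over the 9 tested genes and 0.0306 over all 11598 genes. These medians were not matched for votes, and counting error enlarges a difference where votes are few. *Fam161a*, for example, had a difference of 0.260 on 52 votes (exact permutation q = 0.597).

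By the exact permutation test 3 more neighbours passed, each with p = 0.000155 and q = 0.022. *Adam23*, a cell surface protein gene beside *Zdbf2*, had 0.441 (embryos 0.320 to 0.509) and 0.640 (0.550 to 0.746), on the paternal side like *Zdbf2*, and 0.423 and 0.682 in N2 embryos (permutation p = 0.00053 over embryos and 0.00367 over litters). *Phactr2*, an actin and phosphatase regulator beside *Plagl1*, had 0.707 (0.569 to 0.828) and 0.460 (0.262 to 0.540), on the maternal side, and 0.707 and 0.464 in N2 embryos (permutation p = 3e-05 over embryos and 1e-05 over litters). *Sf3b5*, a splicing factor on the other side of *Plagl1*, had 0.489 (0.468 to 0.509) and 0.430 (0.418 to 0.438) on 124678 votes, and 0.393 and 0.342 in N2 embryos (permutation p = 1e-05 over embryos and over litters). The N2 test was run on 6 neighbours. The embryos of the 2 F1 crosses did not overlap for any of these 3 genes. Beside *Trappc9*, *Chrac1* had 0.509 and 0.477 (q = 0.43), *Eif2c2* 0.535 and 0.484 (q = 0.564), and *Ptk2* 0.325 and 0.425 (q = 0.424), none of which passed. *Chrac1* and *Ptk2* in N2 embryos had 0.584 against 0.4996 (permutation p = 0.00208 over embryos and 0.0257 over litters) and 0.548 against 0.382 (permutation p = 0.0231 and 0.0658).

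For comparison, 24 genes from a list of other paternally expressed genes and 24 from a list of other maternally expressed genes had enough F1 votes. The binomial test called 19 and 15 of them, 19 and 14 on the side the list gives, *Gnas* being the exception. *Klf14*, on the paternal list, had maternal votes alone, 20 with B6 mothers and 28 with Cast mothers. It was not called, with a binomial adjusted p of 0.0221 in B6 × Cast embryos, but its exact permutation q was 0.022. In N2 embryos the binomial test called 15 of 19 and 10 of 16. These counts stand beside 6 of 9 in F1 and 6 of 8 in N2 embryos for the genes described here.

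Total levels were compared between the F1 crosses next, with edgeR, after which 3788 of 14625 genes, or 25.9%, passed a q of 0.05. Of the 9 genes tested here 3 passed, a share close to that background. In whole embryos, fewer cells of a type and less RNA per cell cannot be told apart. *Trappc9* ran from 71.6 through a median of 78.5 to 87.4 RPM in B6 × Cast embryos and from 48.5 through 54.8 to 62.7 RPM in Cast × B6 embryos, with no overlap. Its means were 78.6 ± 6.02 and 55.4 ± 4.35 RPM (SD, n = 8 each), a log2 difference of 0.44 ± 0.088 (SE) with adjusted p = 0.00243 by edgeR. The litters closest in stage were litter 5 of B6 × Cast (48 to 50 somites) and litter 2 of Cast × B6 (46 to 48 somites). Between them 1549 of 14493 genes passed, and 1 of the 9 genes tested here, a share close to that of all genes. It was *Trappc9*, at 79.5 ± 6.41 against 55.7 ± 3.03 RPM. These litters also differed in their sequencing runs, gaIIx and hs1 against hs1 and hs2, which cannot be told apart from the cross here.

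*Impact* and *Peg13* passed over all litters and overlapped between crosses. *Impact* ran from 6.75 to 13.0 RPM with a median of 10.2 in B6 × Cast and from 9.44 to 17.3 with a median of 14.2 with Cast mothers, a log2 difference of -0.56 ± 0.15 (adjusted p = 0.0108, edgeR). *Peg13* ran from 41.6 to 65.7 RPM with a median of 52.8 and from 31.8 to 50.1 with a median of 44.1, a log2 difference of 0.29 ± 0.098 (adjusted p = 0.036, edgeR). The oldest litter, B6 × Cast litter 3 at 58 to 63 somites, held the highest *Peg13* values, at 64.0 ± 1.55 RPM. The *Commd1* means were 222 and 245 RPM and those of *Zrsr1* 4.46 and 5.33 RPM, with adjusted p of 0.0801 and 0.118 by edgeR.

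*Plagl1* varied between litters rather than between crosses. Its level was 37.0 ± 5.18 RPM in Cast × B6 litter 1, the youngest at 41 to 43 somites, and 99.3 ± 21.6 RPM in litter 2 of the same cross, 85.1 ± 13.0 RPM in B6 × Cast litter 3 and 94.6 ± 14.4 RPM in litter 5. The runs of the 2 Cast × B6 litters differed, while litter 1 shared its pair of runs with both B6 × Cast litters. The 4 embryos of Cast × B6 litter 1 were all below the other 12, and the difference between crosses had an adjusted p of 0.277 by edgeR. *Inpp5f* was also lowest in that litter, at 4.55 ± 0.48 RPM against 7.26 ± 1.79 in litter 2, and *Zdbf2* at 1.96 ± 0.46 against 2.78 ± 0.90 RPM. *Ddc* lay between 3.31 and 4.33 RPM in the litter means. *Kcnk9* had 26 reads in the 16 F1 embryos together and 1 read in the N2 embryos.

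**Figure D3:**
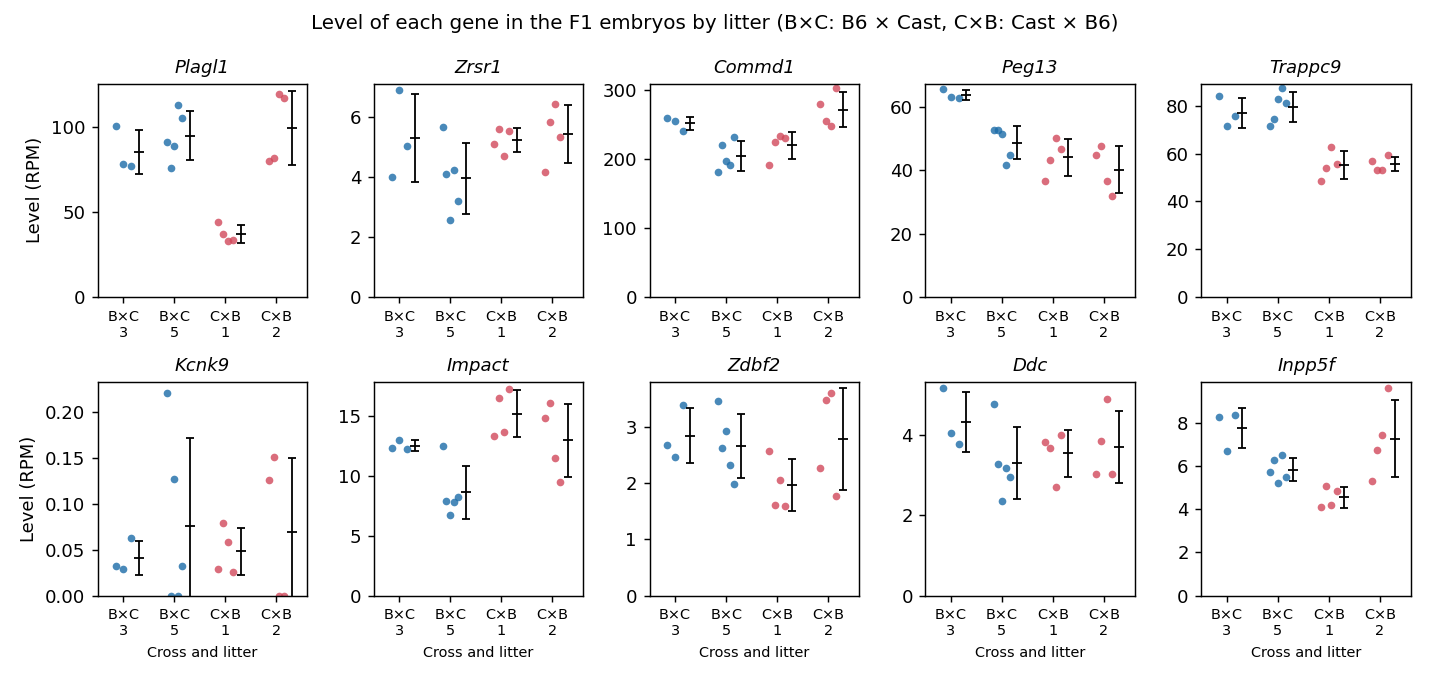
Level in RPM of each gene in the F1 embryos by cross and litter, with 1 point per embryo and the mean ± SD of the litter in black. *Trappc9* is higher in both B6 × Cast litters, and the 4 embryos of the first Cast × B6 litter are the lowest in *Plagl1*.

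In the N2 embryos the mother's genotype was tested with a rank-sum test on log2(RPM + 1), where the mean level reached 5 RPM, and 490 of 9733 genes, or 5.03%, passed a Bonferroni p of 0.01. None of the 8 genes tested passed. With Benjamini-Hochberg adjustment at the same threshold *Trappc9* alone of the 8 passed, where 2077 of 9733 genes did. EdgeR with TMM scaling and DESeq2 each called 2, *Plagl1* and *Trappc9*. Over all genes edgeR called 2643 of 10395, or 25.4%, and DESeq2 2997 of 15099, or 19.8%. *Trappc9* had a mean of 74.8 ± 17.6 RPM under B6 mothers (35.3 to 127, median 75.2, n = 89) and 57.5 ± 22.2 RPM under F1 mothers (16.6 to 109, median 55.1, n = 65). The groups overlapped, with a log2 difference of 0.45 ± 0.083 and a Bonferroni p of 0.0662. The direction was that of the F1 crosses, with the higher level under B6 mothers. Within flowcells the means of *Trappc9* were 70.9 and 50.4 RPM in the first and 76.7 and 73.3 RPM in the second. *Commd1* had a log2 difference of -0.26 and *Zdbf2* of 0.44, with an adjusted p of 1 each.

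Several of these genes differed more between flowcells than between mothers. *Ddc* had means of 2.22 and 1.79 RPM under B6 and F1 mothers in the first flowcell and 11.3 and 18.9 RPM in the second. *Inpp5f* had 4.06 and 3.40 RPM and then 16.8 and 21.9 RPM, and *Zdbf2* 2.58 and 2.39 RPM and then 13.2 and 16.7 RPM. For these 3 genes the mean level was higher under B6 mothers in the first flowcell and lower in the second. The pooled log2 differences of *Ddc* and *Inpp5f* were 0.24 and 0.34. Among lanes with several embryos of a mother, the highest mean under B6 mothers was 22.5 RPM for *Ddc*. It was 35.4 RPM for *Inpp5f* and 25.7 RPM for *Zdbf2*. Under F1 mothers the highest lane means were lower, at 20.1, 24.0 and 18.1 RPM. Most lanes held embryos of B6 mothers alone or of F1 mothers alone. Mother and lane are thus mixed within flowcells, and the part of lane was not tested. *Peg13* had nearly equal means of 35.0 and 34.7 RPM in the first flowcell and 48.6 and 95.2 RPM in the second. *Plagl1* ran from 72.6 to 3389 RPM over the N2 embryos, with flowcell means of 260 and 282 RPM and then 764 and 556 RPM. *Zrsr1*, with a mean of 4.62 RPM, fell under the minimum and had flowcell means of 3.47 and 2.75 RPM and then 5.99 and 6.50 RPM.

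**Figure D4:**
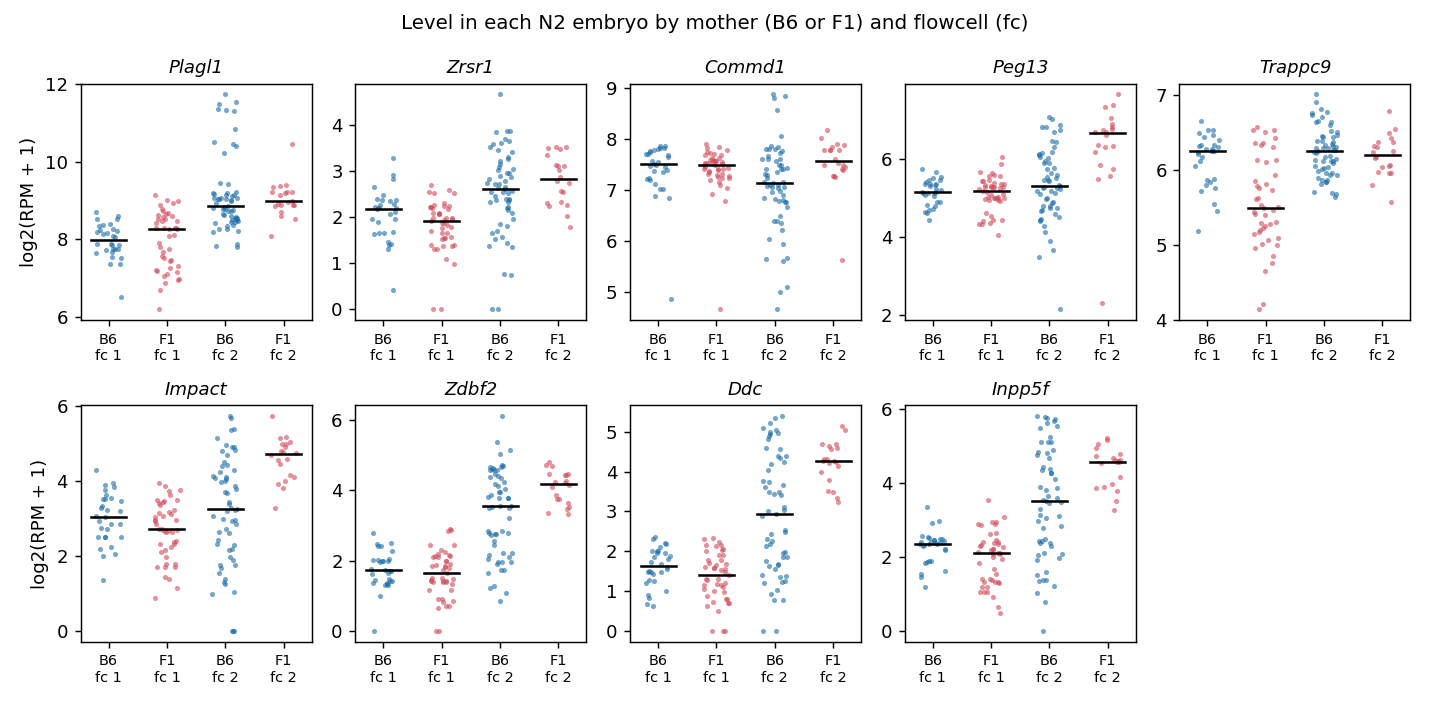
log2(RPM + 1) of each gene in the N2 embryos by mother and flowcell (fc), with 1 point per embryo and the median as a black line. The second flowcell is higher and more spread for *Ddc*, *Inpp5f*, *Zdbf2* and *Plagl1*, and *Trappc9* under F1 mothers is low in the first flowcell.

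With somite number, known for 147 N2 embryos, 2166 of 9733 genes, or 22.3%, had a Spearman correlation at q under 0.05, and 2 of the 8 genes did. *Commd1* had rho = -0.22 (q = 0.039) and *Trappc9* rho = 0.22 (q = 0.0368). Their Pearson values were -0.28 and 0.21, and -0.23 and 0.21 without the 2 embryos farthest from the median. By permutation the p was 0.00805 and 0.00718 for Spearman's rho and 0.00053 and 0.00961 for Pearson's r. After lane was taken out of the ranks both were near 0, at -0.03 and -0.01, neither passed over litter means, and *Peg13* changed from 0.15 to 0.35 (q = 0.000962). *Trappc9* had 61.9 ± 24.1 RPM in 55 embryos of at most 47 somites and 72.5 ± 19.3 RPM in 68 embryos of at least 50 somites. Under F1 mothers alone 2272 of 9733 genes, or 23.3%, passed, among them *Peg13*, *Trappc9* and *Zdbf2*, and under B6 mothers alone 5022, or 51.6%, among them *Commd1*, *Impact* and *Inpp5f*. Under F1 mothers alone *Trappc9* had 36.7 ± 11.9 RPM in 16 young and 67.9 ± 19.6 RPM in 35 older embryos (rho = 0.59), against 72.3 ± 19.7 and 77.3 ± 17.9 RPM under B6 mothers (rho = 0.14). *Peg13* had rho = 0.62 under F1 mothers alone, with 28.3 ± 15.0 RPM in young and 68.2 ± 44.9 RPM in older embryos, and rho = -0.22 under B6 mothers, whose difference was not tested. The flowcell moved with these values, since under F1 mothers the mean of *Peg13* was 34.7 RPM in the first flowcell, with 43 to 54 somites, and 95.2 RPM in the second, with 47 to 53. Within the first flowcell the rho of *Peg13* was 0.80 in 43 embryos of F1 mothers and 0.60 in 27 of B6 mothers. Within the second it was 0.25 in 19 embryos of F1 mothers and -0.45 in 58 of B6 mothers, opposite in sign to the first flowcell under the same mothers. Lane was not taken out of these values within flowcells, so stage and lane are mixed in them. Lane means of *Peg13* under B6 mothers ran from 21.8 to 79.7 RPM. The rho values of *Trappc9* were 0.56 and 0.45 within the flowcells under F1 mothers, and 0.43 and -0.0051 under B6 mothers. *Commd1* had 191 ± 86.9 and 155 ± 56.0 RPM, and *Peg13* 47.0 ± 31.2 and 53.5 ± 37.5 RPM.

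The genotype at the gene itself was compared within each mother after centring the levels on lanes. Levels differed by genotype in 1578 of 9733 genes (16.2%) under B6 mothers and 1672 (17.2%) under F1 mothers, and among the 8 genes in *Trappc9* alone in each. Under B6 mothers *Trappc9* had 69.8 ± 15.7 RPM in 42 B6/Cast embryos (35.3 to 112, median 71.3) and 79.2 ± 18.2 RPM in 47 B6/B6 embryos (50.3 to 127, median 77.4), with a log2 difference of -0.19 ± 0.054 and q = 0.00766 by the rank-sum test. Under F1 mothers it had 48.1 ± 22 RPM in 26 B6/Cast embryos (16.6 to 92.1, median 38.3) and 63.7 ± 20.3 RPM in 39 B6/B6 embryos (26.0 to 109, median 62), with -0.29 ± 0.079 and q = 0.00227. The level of *Trappc9* was thus lower with a Cast copy whether that copy came from the father or the mother, and the groups overlapped in both. As 1 of 8 genes it made up a share no larger than that over all genes. Its BAF averaged over both backcrosses was 0.508, so its votes did not show a lower share of the Cast allele. The cause of the lower level was not tested. Without lane centring the differences were -0.18 and -0.47 and neither passed.

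Whether the effect of a Cast copy depended on its parent was tested as an interaction, which passed for 2 of 9733 genes (0.0205%) and for none of the 8. By an unadjusted p under 0.05 it was also none of the 8. For *Trappc9* the effect under B6 mothers minus that under F1 mothers was 0.10 ± 0.097 on the log2 scale. For the paternally expressed genes a paternal Cast copy is the active or favoured one, and the differences were 0.37 ± 0.21 for *Zdbf2*, 0.32 ± 0.24 for *Inpp5f*, 0.31 ± 0.23 for *Ddc*, 0.28 ± 0.27 for *Impact*, 0.26 ± 0.14 for *Plagl1* and 0.03 ± 0.19 for *Peg13*, each with q of at least 0.993. *Zdbf2* had 12.5 ± 12.6 RPM with a paternal Cast copy and 7.34 ± 8.83 RPM without one under B6 mothers (q = 0.0998), and its log2 difference under F1 mothers was -0.01 ± 0.14.

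**Figure D5:**
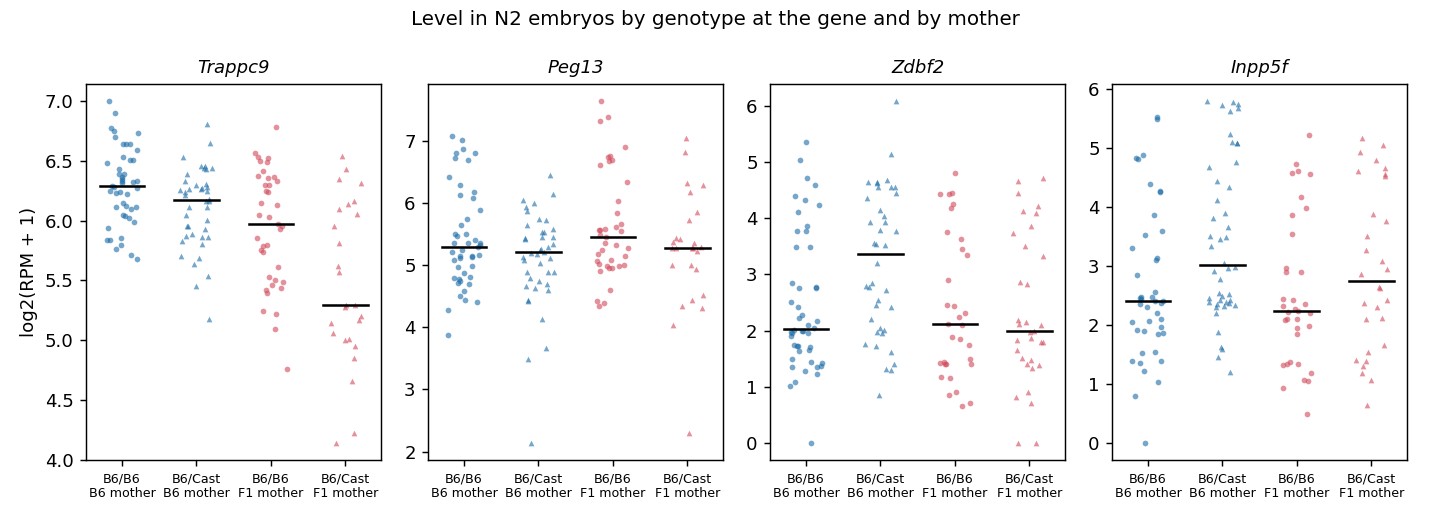
log2(RPM + 1) of *Trappc9*, *Peg13*, *Zdbf2* and *Inpp5f* in B6/B6 (circles) and B6/Cast (triangles) N2 embryos of B6 mothers (blue) and F1 mothers (red), with the median as a black line. Values are shown before centring on lanes, and B6/Cast embryos are lower in *Trappc9* with either mother.

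The level of each nested gene was set against that of its host over the 154 N2 embryos, after centring on lanes, as 2 relations. *Zrsr1* and *Commd1* had Spearman's rho = 0.29 (permutation p = 0.00039, adjusted 0.00078) and Pearson's r = 0.23 (permutation p = 0.00545, adjusted 0.0109), with r = 0.24 without the 2 farthest embryos. Spearman's value was 0.26 in the first and 0.30 in the second flowcell, and 0.28 over the means of 29 litters (permutation p = 0.142). *Peg13* and *Trappc9* had rho = 0.11 (permutation p = 0.167) and r = 0.13 (permutation p = 0.114), with -0.05 and 0.23 within the flowcells. *Commd1* had larger rho values with *Impact* (0.53), *Ddc* (0.41) and *Peg13* (0.37), which are not nested in it. With *Plagl1*, *Trappc9*, *Zdbf2* and *Inpp5f* it had -0.29, -0.09, 0.09 and 0.19. The value of *Zrsr1* is thus not particular to a nested gene. *Zrsr1* overlaps a *Commd1* exon, and whether reads were counted by strand is not given. Lanes and depth are shared by both genes of a pair, and the *Zrsr1* level was a median of 9 reads per embryo under B6 mothers.

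Among the 9733 genes, those whose levels followed *Commd1* most closely over the embryos were *Chchd3* (rho = 0.73), *Thoc7* (0.72) and *Pmpca* (0.72), and those nearest to *Impact* were *Thoc7* (0.70), *Chchd3* (0.68) and *Mrps31* (0.66). *Commd1* and *Impact* had rho = 0.53 with each other, the largest value among the 28 pairs of these genes. *Plagl1* was followed by *Fuz* (0.69), *Erf* (0.66) and *Zfp13* (0.64), and *Peg13* by *Add1* (0.71), *Ube2ql1* (0.69) and *1300018I17Rik* (0.68). *Ddc* was followed by *Glyr1* (0.65), *Nova1* (0.64) and *Idh3a* (0.64), *Inpp5f* by *Fbxo38* (0.57), *Ubr7* (0.52) and *Ube2e3* (0.52), and *Zdbf2* by *Lypla1* (0.53) and *Pank3* (0.53). *Trappc9* had the lowest values, with *Ap2a1* (0.49), *Ano10* (0.45) and *Ly6e* (0.45). These values describe embryos that share lanes and depth.

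The families of the protein-coding genes were examined in the F1 crosses as lists. Of all 14625 genes 12.3% passed as higher in B6 × Cast embryos and 13.6% as lower. Of 9 COMMD family genes tested none rose and *Commd10* fell in B6 × Cast relative to Cast × B6 embryos, by 1.09 on the log2 scale, with a family median of -0.05. Of 9 TRAPP complex genes besides *Trappc9* none rose and *Trappc3* fell by 0.72, with a median of -0.04. None of 9 genes of monoamine synthesis and transport passed, and the median was -0.0034. Of 12 inositol phosphatases *Inpp5j* rose by 0.93 and *Inpp5k* by 0.24, and none fell, with a median of 0.04. The median of all 14625 genes was -0.03. By the mother in N2 embryos 1 gene of these families passed, *Inppl1*, with a log2 difference of -0.64 between B6 and F1 mothers.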

How the data were processed

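3SEQ reads from single whole embryos were processed by the authors, who aligned them with Bowtie2 against mm9 (B6) and against the same sequence carrying known Cast SNPs, dropped reads whose next alignment lay within an edit distance of 3, and deposited raw counts of reads per RefSeq gene. Allele votes were deposited as estimated counts, in which each SNP in a read takes an equal part of 1 vote. Deposited genotypes, another kind of value, came from the authors' hidden Markov model along each chromosome, so an imprinted gene's own votes entered its call. Versions are not given in the sources used here. F1 embryos have 2 sequencing runs in the labels and 1 column in the tables, taken as their sum. Of 168 N2 columns 14 were not used, lacking a labelled group or a genotype.

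Groups, litters, lanes and somites came from the labels. Counts were divided by the total on genes (RPM). F1 levels of all genes were tested with edgeR 4.0.16 (quasi-likelihood, TMM), N2 levels of autosomal genes of at least 5 RPM with two-sided rank-sum tests, Spearman's correlation and least squares for the interaction. Votes were rounded to whole numbers for binomial tests and Wilson intervals. Allele tests used at least 20 votes per cross, and permutations drew 100000 resamples. Alternatives were other minimums, pseudocounts, adjustments, scalings, DESeq2 1.42.0, flowcells and litters left out. All 10 genes were named throughout, and neighbours by distance. For the genes most like each one, the 3 largest Spearman values over lane-centred levels were taken, of which 1 is not reported here. Tests were checked on simulated data. The genes and lists were chosen with earlier results of these data known. Labels do not say whether embryos of a litter are independent. Binomial p-values take the pooled vote as the unit and do not measure the spread between embryos. The other p-values measure the spread between embryos, or between litters where litters were permuted or averaged. *Chrac1*, *Eif2c2* and *Ptk2*, which were not called, were named after their values were seen.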

Additional observations from a re-analysis of the deposited data

Results flagged for a closer look

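In 47 groups of 4 to 10 embryos the gap between the extreme value and the next was divided by the full range of the group. An embryo stood apart in 4 of them, and chance alone gives about 1 in 20. The Cast × B6 embryo 2-3 had 0.564 votes per 100 reads at *Commd1* and 12.5 at *Peg13*, above the other embryos of its cross, while over all autosomal genes it had 17.6 votes per 100 reads, the lowest value of the 16 F1 embryos. The BAF of *Peg13* in that embryo was 1, as in the rest of its cross. *Impact* had a BAF of 0.125 in B6 × Cast embryo 5-3 and of 0.857 in Cast × B6 embryo 2-3, where the other embryos with at least 5 votes were at 0 and at 1. These 2 values rest on 8 and 14 votes. Where all other embryos are equal, any differing value gives a gap as large as the range, so the rate of 1 in 20 does not hold for *Impact*.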

How the results depend on the processing

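Of 299 values recomputed for single genes under the alternatives, 267 kept their direction and 232 also kept their side of the threshold. The number of these genes called in the F1 allele test was 6, and 3 of 4 tested with a minimum of 100 votes, 7 by exact permutation and 4 to 5 with a litter left out, when *Zrsr1* and *Impact* fell below the vote minimum in some cases, *Inpp5f* was lost without Cast × B6 litter 2 (-0.66) and *Impact* without B6 × Cast litter 3 (-0.926). With Benjamini-Hochberg adjustment 8 were called in F1, adding *Trappc9* and *Ddc*, and 7 in N2 embryos, adding *Trappc9*. Leaving out Cast × B6 embryo 2-3, chosen after seeing the data, gave 6. Over all genes the calls were 47, or 65 with Benjamini-Hochberg adjustment and 112 by permutation. In N2 embryos 6 were called, and 3 of 6 tested in the first flowcell alone, where *Zrsr1* and *Commd1* fell below the vote minimum, and *Ddc* (-0.414, against -0.351 over both) and *Inpp5f* (-0.680 against -0.664) no longer passed. *Commd1* reversed in the second flowcell (-0.020).

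By the mother, 0 were called, and 0 over litter means, where the rank-sum test called 0 of 9733 genes (1279 at an unadjusted p under 0.05), against 1 with Benjamini-Hochberg adjustment, 2 with edgeR, 2 with DESeq2, 4 with edgeR including flowcell and somites (*Peg13*, *Trappc9*, *Impact*, *Ddc*), and, added after seeing the data, 1 and 4 with edgeR within the first and second flowcell. Over all genes the rank-sum test over embryos called 490 of 9733, and 2077 of 9733 with Benjamini-Hochberg adjustment. The calls were 2643 of 10395 with edgeR and 2997 of 15099 with DESeq2. With flowcell and somites edgeR called 6415 of 10430, a larger share than among the genes described here. Within the first and second flowcell it called 4016 of 9745 and 4315 of 11054. Reversed log2 differences by the rank-sum test were, in the first flowcell, -0.013 for *Plagl1*, 0.037 for *Peg13* and 0.34 for *Impact*, and in the second -0.73 for *Zdbf2*, -1.30 for *Ddc* and -0.96 for *Inpp5f*. With edgeR they were, with flowcell and somites, -0.26 for *Zdbf2*, -0.54 for *Ddc* and -0.27 for *Inpp5f*, in the first flowcell -0.15 for *Plagl1* and 0.28 for *Impact*, and in the second -0.17 for *Zdbf2*, -0.58 for *Ddc* and -0.21 for *Inpp5f*.

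With somite number 2 were called, 1 with lane taken out, 0 over litter means, and 3 each under B6 and F1 mothers alone. Of all 9733 genes these tests called 2166, 1125, 144, 5022 and 2272. Reversed correlations were -0.0095 for *Trappc9*, 0.022 for *Impact*, -0.13 for *Zdbf2*, 0.12 for *Ddc* and 0.051 for *Inpp5f* with lane out, -0.057 for *Zdbf2* over litters, -0.22 for *Peg13* and -0.12 for *Zdbf2* under B6 mothers alone, and 0.30 for *Impact*, 0.22 for *Ddc* and 0.23 for *Inpp5f* under F1 mothers alone. By genotype 1 was called with each mother, and 0 and 0 without lane centring, when *Ddc* reversed under B6 mothers (-0.18). With a pseudocount of 5 *Zdbf2* reversed under F1 mothers (0.011). Between F1 crosses 3 were called, among 3788 of 14625 genes, and 1 between the litters closest in stage, among 1549 of 14493. Reversed values between those litters were -0.0095 for *Plagl1*, -0.014 for *Zdbf2* and -0.26 for *Inpp5f*. Dividing by totals reversed *Ddc* (0.029). The correlation of *Zrsr1* and *Commd1* was 0.28 over litters and no longer passed, and without lane centring Spearman's rho was 0.20 (permutation p = 0.0128) while Pearson's r was -0.035 (p = 0.669), and that of *Peg13* and *Trappc9* was 0.19 and passed without lane centring. The causes were not tested. No paired analysis was possible because the replicate names give the litter and the embryo and mark nothing shared between crosses. N2 depth limits *Zrsr1*, *Ddc* and *Zdbf2* to medians of 6 to 9 reads per embryo.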
